A study of Rattus norvegicus with 12 samples.

Results

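Alprostadil, which is prostaglandin E1, was compared with vehicle in skin-derived precursors (SKPs) of newborn Sprague-Dawley rats, with each alprostadil array set against the vehicle array of the same replicate number. SKPs are dermal precursor cells that grow as floating spheres. The comparison used 6 of the 12 arrays in the series, 3 with vehicle and 3 with alprostadil, chosen by treatment label and paired by the replicate number in the sample titles. The alprostadil cultures received 100 nM alprostadil for 24 h after their secondary spheres were dissociated. The other 6 arrays were of cells given 100 nM trimebutine maleate, without or with trametinib, and served here to estimate the spread and, for trimebutine alone, as a further reference. All groups shared a DMEM-F12 growth medium that held FGF2 at 40 ng/ml, EGF at 20 ng/ml, B27 at 2% and fungizone, with 50000 cells per ml. The design text speaks of 3 independent isolates of cells. That a replicate number stands for an isolate is not stated there, and whether an isolate pooled several pups is not given in the sources used here. The series title names a search for drugs that enhance skin repair.

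Prostaglandin E1 binds the E-type prostanoid receptors and the prostacyclin receptor. The receptors EP2 (Ptger2), EP4 (Ptger4) and IP (Ptgir) couple through the stimulatory G protein to adenylyl cyclase, which makes cyclic AMP. Cyclic AMP activates protein kinase A, which phosphorylates the transcription factor CREB, and CREB binds the cyclic AMP response element (CRE) of its target genes. Phosphodiesterases break cyclic AMP down, and several of their genes are themselves CREB targets. In skin, prostaglandins of the E type act on fibroblasts, blood vessels and immune cells during repair.

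The arrays report RMA-normalized log2 expression values per gene. Of 18166 genes with a symbol, 13636 exceeded a low-signal limit of 5.83 on average over all 12 arrays and were tested. Array medians lay between 6.41 and 6.50, and arrays of the same group correlated at 0.987 to 0.991. All 8 of the SKP markers found on the array, among them Nes, Vim, Fn1 and Pdgfra, exceeded the limit, and so did all 10 defining macrophage and leukocyte markers and all 3 of adipocytes. Of the defining mast cell markers on the array, 1 of 3 exceeded it (Tpsab1), while Cpa3 and Ms4a2 did not. So did 2 of 2 keratinocyte, 2 of 2 smooth muscle, 1 of 1 Schwann, 1 of 1 endothelial and 2 of 3 melanocyte markers. Exceeding the limit thus does not show which cell types were present. The mean over 22 macrophage and leukocyte markers was 7.44, 7.85 and 8.57 in vehicle replicates 1, 2 and 3, and 7.19, 7.97 and 8.61 with alprostadil. Replicate 3 was thus the highest in both groups, and the replicate numbers differed more than the treatments. In bulk RNA, fewer cells of a type and less RNA per cell cannot be told apart.

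With replicate number as a block, 257 of the 13636 genes passed at a Benjamini-Hochberg adjusted p under 0.05 from limma, which is 1.88% of those tested. Of these, 160 were higher with alprostadil (1.17%) and 97 were lower (0.711%). All 257 differed in the same direction in each of the 3 pairs, which their choice by the paired fit largely fixed. Over all genes, 16.4% were higher in all 3 pairs and 19.8% were lower in all 3. Among the tested genes, the largest rises were of Il6, Nr4a1, Rorb, Pf4, Srgn, Penk, Phyhipl, Tfpi2, Pde4b, Lif, Nfil3 and Areg. The largest falls were of Ccl12, Prelp, Clec4a1, C3ar1, Cd180, Rasgrp3, Rgs18, Adgre1, Lbh, Ccl4, Prss23 and Clec4a3. A filter on the mean can remove a gene that is high in only 1 group. With no filter 8 genes under the limit passed, and the largest of these was Cxcl13, a rise of 2.07 that is described with the chemokines. Of the 257, 7 had a mean under the limit in the lower group: Pi15, Has1, Ppargc1a and Kera with vehicle, and Clec4a3, Rgs18 and Cd180 with alprostadil. Their differences are set against a level that is not above the limit. Without the block 53 genes passed (0.389%), 44 higher (0.323%) and 9 lower (0.066%), and all of them were among the 257. The count was 119, 118 and 131 without vehicle replicate 1, 2 or 3, 128 and 115 without alprostadil replicate 1 or 2, and 88, 37 and 125 without replicate number 1, 2 or 3 in every group. Of the 76 passing genes named by rule, 41 passed in each of the 6 runs that left out 1 vehicle or alprostadil array, 18 of them also in each run without 1 replicate number, and 52 were lost without replicate number 2.

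**Figure D1:**
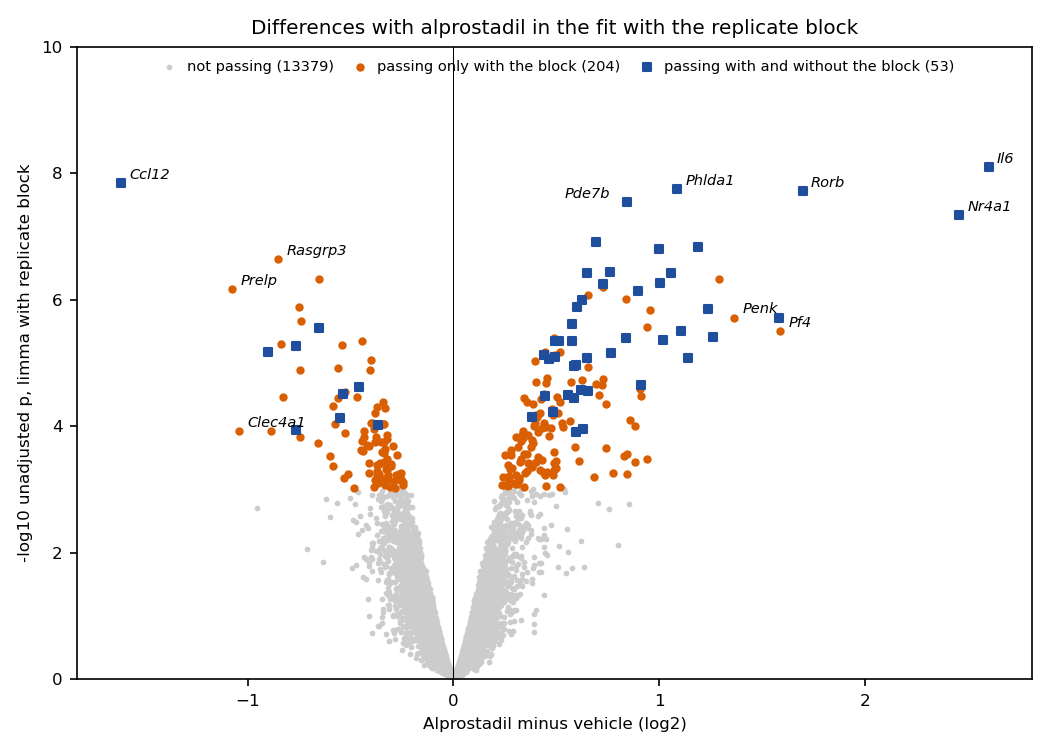
Each point is a gene, with the alprostadil minus vehicle difference (log2) on the horizontal axis and minus log10 of the unadjusted limma p with the replicate block on the vertical axis. Blue squares are the 53 genes that passed with and without the block, orange points the 204 that passed only with it, and grey points the rest; Il6 and Nr4a1 lie farthest to the right and Ccl12 farthest to the left.

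Il6, the cytokine interleukin-6, had log2 values of 6.79, 6.47 and 5.87 in vehicle replicates 1 to 3 and of 9.65, 9.11 and 8.18 with alprostadil. The groups did not overlap, and replicate 3 was lowest in both. The difference was 2.60 (SE 0.158, adjusted p = 6.47e-05), a 6.07-fold rise. Nr4a1, an immediate early orphan nuclear receptor, had 6.53, 6.59 and 6.38 with vehicle and 9.42, 9.11 and 8.36 with alprostadil, again with replicate 3 lowest and no overlap. It rose by 2.46 (SE 0.177, adjusted p = 0.000103). Rorb, a nuclear receptor of the ROR family, went from 7.38, 7.19 and 7.54 to 9.36, 8.85 and 9.01, a difference of 1.70 (SE 0.112, adjusted p = 6.47e-05). The opposite pattern was clearest for Ccl12, a monocyte-attracting chemokine. Its values were 8.47, 8.30 and 8.46 with vehicle and 6.66, 6.80 and 6.91 with alprostadil, so the groups were far apart, with a difference of −1.62 (SE 0.104, adjusted p = 6.47e-05).

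**Figure D2:**
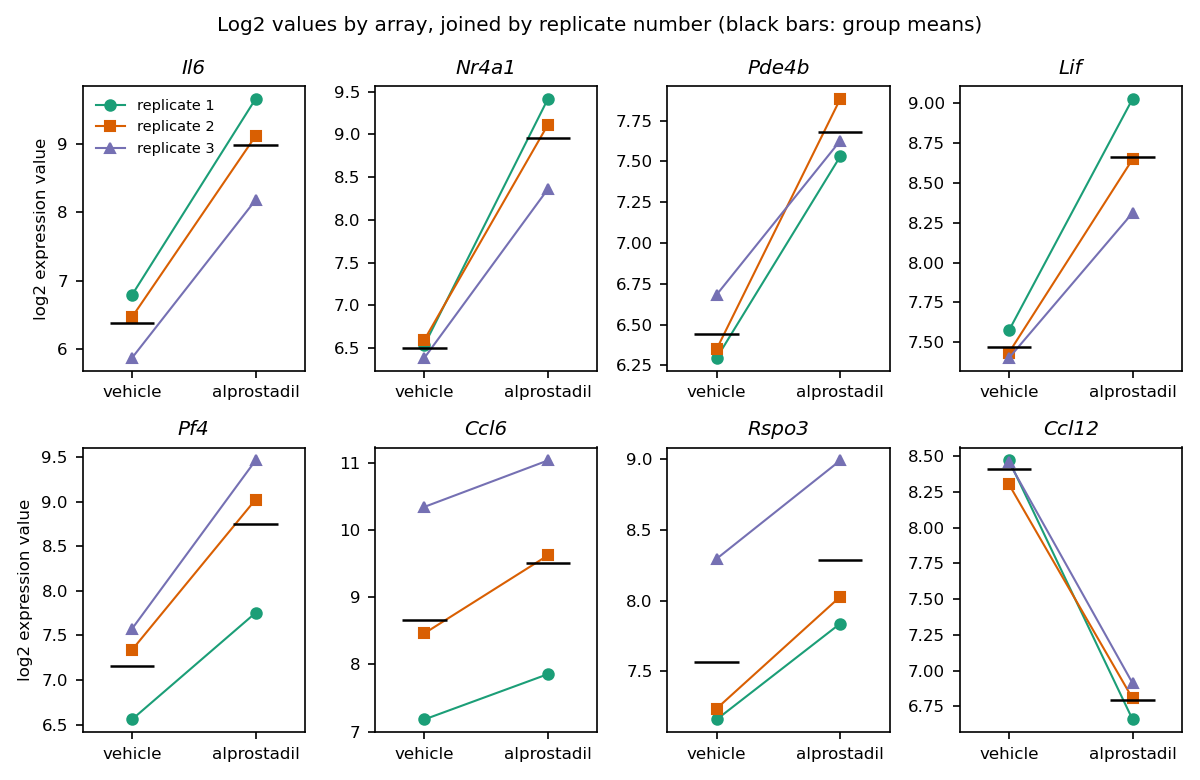
Log2 expression value of 8 genes in each vehicle and alprostadil array, joined by replicate number, with black bars for the group means; each panel has its own vertical axis. Il6, Nr4a1, Pde4b and Lif rise and Ccl12 falls without overlap of the groups, while Ccl6 and Rspo3 rise in every pair although the replicate numbers lie far apart.

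Among the prostanoid receptors, only the prostaglandin F receptor gene Ptgfr rose of 8 tested, and none fell. Ptgfr had 7.24, 7.13 and 7.27 with vehicle and 7.71, 7.59 and 7.92 with alprostadil, which did not overlap (difference 0.53, SE 0.0857, adjusted p = 0.0105). Its call was lost without alprostadil replicate 1 or 3 or either of vehicle replicates 2 and 3, where the adjusted p reached 0.067. The receptors coupled to cyclic AMP production did not pass. Ptger4 was at 8.81, 8.73 and 8.73 with vehicle and 8.13, 8.47 and 8.56 with alprostadil, a difference of −0.37 (SE 0.116, adjusted p = 0.178). All its alprostadil arrays lay below all vehicle arrays, as they did for 6.19% of all genes. Ptgir differed by −0.20 (SE 0.0694, adjusted p = 0.237) and Ptger2 by 0.02 (SE 0.132, adjusted p = 0.971). Ptger1, Ptger3, Ptgdr2 and the thromboxane receptor gene Tbxa2r had differences of 0.08, 0.14, −0.03 and 0.04.

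Of 16 tested genes for cyclic AMP production and its effectors, which include adenylyl cyclases, protein kinase A subunits and anchoring proteins, 1 fell and none rose. This was Akap12, which anchors protein kinase A and protein kinase C. Akap12 had 9.13, 9.17 and 8.08 with vehicle and 8.57, 8.55 and 7.67 with alprostadil (difference −0.53, SE 0.111, adjusted p = 0.0386). The groups overlapped, since replicate 3 was low in both, and the call was lost in each of the 6 runs without 1 array (adjusted p up to 0.185). The catalytic subunit genes Prkaca and Prkacb differed by −0.08 and −0.02, and the stimulatory G protein gene Gnas by −0.04, none of them passing. Of 11 CREB family and coactivator genes, Crem rose by 0.49 (SE 0.0752, adjusted p = 0.00795) and Pkig, an inhibitor of protein kinase A, fell by 0.41 (SE 0.0797, adjusted p = 0.0273). Crem encodes activator and repressor forms of the CREB family, which these values do not separate. The call of Crem was lost without alprostadil replicate 1 or 2 or either of vehicle replicates 2 and 3 (adjusted p up to 0.057), and that of Pkig in every run except the one without alprostadil replicate 3 (up to 0.149).

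The cyclic nucleotide phosphodiesterases had 5 genes higher of 16 tested and none lower. Pde4b, which breaks down cyclic AMP, had 6.30, 6.35 and 6.68 with vehicle and 7.53, 7.88 and 7.63 with alprostadil, with no overlap (difference 1.24, SE 0.127, adjusted p = 0.000728). Pde7b, also specific for cyclic AMP, rose by 0.85 (SE 0.0583, adjusted p = 7.86e-05), from 8.35, 8.31 and 8.60 to 9.30, 9.17 and 9.34. Pde10a, Pde4d and Pde3b rose by 0.84, 0.84 and 0.58, and in each the alprostadil arrays lay above all vehicle arrays. Pde5a, which is specific for cyclic GMP, did not pass (difference 0.36, adjusted p = 0.107). Of these 5, Pde10a passed only with the block (adjusted p = 0.122 without it), and its vehicle values ran from 8.59 in replicate 1 to 7.88 in replicate 3. In the runs without 1 array 5 or 6 phosphodiesterase genes were higher, and 2 were without replicate number 2 in every group. The median over the 16 genes was 0.05, beside −0.01 over all genes.

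CREB-responsive genes were higher in 12 of 24 cases and lower in 1, with a median difference of 0.42. The list was chosen with earlier results of these data known, so that its direction is not independent evidence. Besides Nr4a1, Pde4b, Pde4d and Pde10a, the rises were of Nfil3, Areg, Nr4a3, Gem, Ppargc1a, Per1, Ptgs2 and Junb. Nfil3, a transcription factor that opposes clock activators, had 7.11, 7.04 and 6.65 with vehicle and 8.44, 8.15 and 7.64 with alprostadil, which did not overlap (difference 1.14, SE 0.142, adjusted p = 0.0021). Gem, a small GTP-binding protein, rose by 0.73 and the clock gene Per1 by 0.52. Nr4a3, a close relative of Nr4a1, rose by 0.88 from 6.94, 7.23 and 6.95 to 8.01, 8.01 and 7.74. The member that fell was Klf4, a zinc finger transcription factor, at 9.73, 9.88 and 9.71 with vehicle and 8.91, 9.47 and 9.37 with alprostadil (difference −0.53, SE 0.0894, adjusted p = 0.013). Klf4 passed only with the block. Fos, an immediate early gene, did not pass (0.42, SE 0.107, adjusted p = 0.0855).

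The number of CREB-responsive genes called higher was 6 without the block, 8 to 10 without 1 vehicle or alprostadil array, and 2 without replicate number 2 in every group. The counts of 8 came without alprostadil replicate 2 or either of vehicle replicates 2 and 3. The calls of Nr4a1, Pde4b, Nfil3, Areg, Pde10a, Pde4d, Gem and Per1 held in all 6 runs without 1 array. The call of Nr4a3 was lost in every such run except that without alprostadil replicate 3 (adjusted p up to 0.142), that of Junb in every run except that without alprostadil replicate 1 (up to 0.141), and that of Ptgs2 in all 6 (up to 0.131). Ppargc1a was lost without any vehicle array or alprostadil replicate 2 (up to 0.08), and Klf4 without vehicle replicate 1 or 2 (up to 0.0924). Clock genes other than Nfil3 and Per1 did not pass, with 2 of 15 higher. Of 11 orphan nuclear receptors, Nr4a1, Rorb and Nr4a3 rose and none fell.

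The CRE was looked up in RefSeq promoters of build GRCr8, each with 250 bases before and 50 after an annotated start, which matched 11080 of the 13636 tested genes, 124 of the 160 higher and 69 of the 97 lower. The full motif TGACGTCA, which reads the same on both strands, was present for 2.0% of all 27457 symbols with a promoter and for 2.96% of the tested genes. It was present for 9 of the 124 genes called higher (7.26%) and for none of the 69 called lower. These 9 were Il6, Areg, Giot1, Mapk10, Has1, Ppargc1a, Crem, Ahi1 and Taf4b. The short core TGACG, on either strand and including those within the full motif, was present for 29.9% of the tested genes, 31.5% of those higher and 23.2% of those lower. A match is a description of letters and not a measured binding site. The promoters below are those of 4 risen genes with the full motif and of Nr4a1, which holds only the short core. The full motif starts at position −162 in Il6, −91 in Areg and −83 in Has1, counted from the annotated start, and at −35 and 39 in the Crem promoter shown. In Nr4a1 the short core starts at −246, −226, −82 and −53, each on the opposite strand. Capitals mark the full motif, and in Nr4a1 the short core.
Il6, chr4:5894526-5894825, strand minus: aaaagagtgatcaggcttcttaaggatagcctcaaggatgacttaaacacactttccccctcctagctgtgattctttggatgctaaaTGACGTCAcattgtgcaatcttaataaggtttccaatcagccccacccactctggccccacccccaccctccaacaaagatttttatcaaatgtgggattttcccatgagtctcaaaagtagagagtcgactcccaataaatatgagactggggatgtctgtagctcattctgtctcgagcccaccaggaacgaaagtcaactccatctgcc
Areg, chr14:17265592-17265891, strand minus: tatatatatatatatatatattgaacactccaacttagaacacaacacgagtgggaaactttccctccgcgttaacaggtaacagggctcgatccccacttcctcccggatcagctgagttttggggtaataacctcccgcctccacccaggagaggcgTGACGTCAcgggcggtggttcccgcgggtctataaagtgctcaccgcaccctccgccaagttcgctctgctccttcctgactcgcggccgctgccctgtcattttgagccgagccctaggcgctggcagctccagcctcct
Has1, chr1:67378395-67378694, strand minus: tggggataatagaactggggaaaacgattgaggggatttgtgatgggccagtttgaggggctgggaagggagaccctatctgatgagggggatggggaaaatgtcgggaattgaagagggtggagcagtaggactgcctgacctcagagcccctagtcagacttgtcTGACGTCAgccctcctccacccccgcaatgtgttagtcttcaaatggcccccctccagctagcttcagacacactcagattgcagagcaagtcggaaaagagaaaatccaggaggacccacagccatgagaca
Crem, chr17:58985240-58985539, strand plus: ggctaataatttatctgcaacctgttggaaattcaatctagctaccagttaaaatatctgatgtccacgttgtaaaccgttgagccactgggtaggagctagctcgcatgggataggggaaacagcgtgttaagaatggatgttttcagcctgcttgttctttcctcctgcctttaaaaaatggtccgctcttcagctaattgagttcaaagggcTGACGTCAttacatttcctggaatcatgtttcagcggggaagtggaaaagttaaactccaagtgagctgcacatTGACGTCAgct
Nr4a1, chr7:134259888-134260187, strand plus: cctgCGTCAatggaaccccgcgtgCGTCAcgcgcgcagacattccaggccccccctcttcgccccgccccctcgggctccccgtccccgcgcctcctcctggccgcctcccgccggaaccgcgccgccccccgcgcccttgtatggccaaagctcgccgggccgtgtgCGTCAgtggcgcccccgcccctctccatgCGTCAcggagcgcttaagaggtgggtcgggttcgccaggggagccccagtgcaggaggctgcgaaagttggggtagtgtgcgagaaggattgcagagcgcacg

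Genes of prostaglandin synthesis, transport and breakdown changed in both directions, with 2 of 17 higher and 2 lower, and each of these 4 passed only with the block. Ptgs2, the inducible cyclooxygenase that makes prostaglandin H2, had 12.53, 12.13 and 11.86 with vehicle and 12.92, 12.60 and 12.46 with alprostadil. The groups overlapped, and replicate 1 was highest in both (difference 0.49, SE 0.0905, adjusted p = 0.021, or 0.661 without the block). Pla2g4a, the phospholipase that releases arachidonic acid, rose by 0.35 (adjusted p = 0.0344). Ptgis, the prostacyclin synthase, fell by 0.32 (adjusted p = 0.0248), and Hpgds, a prostaglandin D synthase, fell by 0.43 (adjusted p = 0.0122). The calls of Ptgs2 and Ptgis were lost in each of the 6 runs without 1 array (adjusted p up to 0.131 and 0.137). That of Pla2g4a was lost in all except the run without alprostadil replicate 3 (up to 0.178). Hpgds lost its call without vehicle replicate 1 (0.0846) and in each run without 1 replicate number (up to 0.179). It was also lost with the 6 vehicle and alprostadil arrays alone.

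Of 15 genes of the interleukin-6 family and its receptors, the 3 ligands Il6, Lif and Il11 rose and none fell. Lif had 7.58, 7.44 and 7.40 with vehicle and 9.02, 8.65 and 8.31 with alprostadil, far apart and with replicate 1 highest in both (difference 1.19, SE 0.0965, adjusted p = 0.000239). Il11 had 6.35, 6.11 and 6.23 with vehicle and 7.24, 6.72 and 7.02 with alprostadil, also without overlap (difference 0.77, SE 0.093, adjusted p = 0.00188). Stat3, the transcription factor that these cytokines activate, did not pass (difference 0.24, adjusted p = 0.0575). All 3 ligands passed without the block and in each run without 1 array. Il11 was lost without replicate number 1 in every group (adjusted p = 0.072).

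Growth factor ligands were affected in part. Among 6 tested ligands of the EGF family, Areg and Ereg rose. Areg, amphiregulin, had 6.61, 6.62 and 6.48 with vehicle and 8.11, 7.74 and 7.18 with alprostadil, with no overlap and the largest rise in replicate 1 (difference 1.11, SE 0.124, adjusted p = 0.00123). Ereg, epiregulin, rose by 0.50 (SE 0.0993, adjusted p = 0.0307) and passed only with the block. Of 21 ligands of the VEGF, PDGF, FGF and HGF families, which include the angiopoietins, 4 rose and none fell. Vegfa, the main growth factor for blood vessels, had 10.99, 10.91 and 10.80 with vehicle and 11.67, 11.67 and 11.54 with alprostadil, a tight and separate pair of groups (difference 0.73, SE 0.0677, adjusted p = 0.000444). Angptl4, Angpt2 and Fgf10 rose by 0.68, 0.61 and 0.49. Fgf10 lost its call without replicate number 2 in every group (adjusted p = 0.103) and kept it in all runs without 1 array. The calls of Ereg and Angptl4 were lost in all 6 (adjusted p up to 0.156 and 0.171) and that of Angpt2 in all except the run without alprostadil replicate 3 (up to 0.147).

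Among targets of MEK and ERK signalling, 3 of 24 rose and none fell, and the median difference was 0.00. They were Lif, Phlda1, a pleckstrin homology-like protein, and Ier3, an immediate early gene. Phlda1 had 9.87, 9.66 and 9.55 with vehicle and 10.94, 10.71 and 10.70 with alprostadil, with no overlap and nearly the same rise in each pair (difference 1.09, SE 0.0714, adjusted p = 6.47e-05). Ier3 rose by 0.59 (SE 0.0752, adjusted p = 0.00253). None of the 10 MAP kinase phosphatases passed. Of 11 AP-1 subunits, only Junb rose.

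Chemokine genes split, with 3 of 27 tested higher and 4 lower, and 6 more were under the low-signal limit. Among those 6 was Cxcl13, a B cell attractant, with 5.66, 5.22 and 5.49 for vehicle and 7.50, 7.26 and 7.81 for alprostadil. All vehicle arrays were under the limit and all alprostadil arrays well above it, so the groups did not overlap. In the fit with no filter on low values Cxcl13 rose by 2.07 (SE 0.129, adjusted p = 0.000418, or 0.000464 without the block), the largest change of any chemokine. It was singled out after its values were seen and was not in the runs without 1 array. Pf4, platelet factor 4, had 6.56, 7.34 and 7.57 with vehicle and 7.75, 9.02 and 9.46 with alprostadil. The groups did not overlap, but the lowest alprostadil array, replicate 1, was close to the highest vehicle array, replicate 3 (difference 1.59, SE 0.177, adjusted p = 0.00123, or 0.178 without the block). Ccl24, an eosinophil chemoattractant, rose by 0.91 from 6.401, 6.49 and 6.30 to 7.17, 7.80 and 6.94. Ccl6, a myeloid chemokine, rose by 0.84 although its groups overlapped widely, from 7.18, 8.46 and 10.35 to 7.86, 9.62 and 11.04. Besides Ccl12, the falls were of Ccl4, Ccl3 and Ccl7. Ccl4 had 6.73, 6.57 and 6.98 with vehicle and 5.89, 5.99 and 6.11 with alprostadil, with no overlap (difference −0.76, SE 0.0904, adjusted p = 0.00158). Ccl3 went from 8.49, 8.87 and 9.67 to 7.32, 8.34 and 9.14, which overlapped, since replicate 3 was highest in both (difference −0.74, SE 0.128, adjusted p = 0.0139). Ccl7 fell by 0.57 (SE 0.0936, adjusted p = 0.0107). Of the 27 tested chemokines, only Ccl12 and Ccl4 passed without the block.

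The neutrophil chemoattractant genes Cxcl1 and Cxcl2 had differences of 0.70 and 0.76, and neither passed (adjusted p = 0.0674 and 0.0764). In both, every alprostadil array lay above every vehicle array, as it did for 5.41% of all genes. Ccl2, the close relative of Ccl12, differed by −0.19 (adjusted p = 0.165). Of 8 TNF family ligands, Tnf and Tnfsf15 fell and none rose. Tnf, a main inflammatory cytokine, had 7.47, 7.64 and 7.74 with vehicle and 6.98, 7.10 and 7.12 with alprostadil, without overlap (difference −0.55, SE 0.0879, adjusted p = 0.00919). Tnfsf15 fell by 0.65 (SE 0.0718, adjusted p = 0.00114). In the list of Toll-like receptor and NF-kappaB output, Nos2, the inducible nitric oxide synthase, rose by 0.63 (adjusted p = 0.0117), Tnf fell, and the other members of the 17 did not pass. Calls were lost for Ccl6 in all runs but that without vehicle replicate 3 (adjusted p up to 0.114), for Ccl3 without vehicle replicate 1 or 3 (up to 0.0974) and for Ccl7 without vehicle replicate 1 or 2 (up to 0.076). Those of Tnf were lost without alprostadil replicate 1 or either of vehicle replicates 2 and 3 (up to 0.0662), and those of Nos2 without replicate 2 or 3 of either group (up to 0.0728).

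Several of these chemokines and some of the strongest falls belong to genes that macrophages and other leukocytes express. Of 21 macrophage and leukocyte markers tested, Adgre1 and C3ar1 fell and none rose, and the median difference was 0.04. Adgre1, the F4/80 antigen, had 7.73, 7.32 and 7.83 with vehicle and 6.46, 6.88 and 7.08 with alprostadil, with no overlap (difference −0.83, SE 0.12, adjusted p = 0.00544). C3ar1, the complement C3a receptor, had 6.97, 6.70 and 6.82 with vehicle and 5.98, 5.89 and 5.91 with alprostadil, likewise separate (difference −0.90, SE 0.109, adjusted p = 0.00188). C3ar1 passed with and without the block, while Adgre1 passed only with it (adjusted p = 0.0951 without it). The call of Adgre1 was also lost without replicate number 3 in every group (adjusted p = 0.0635). The other 19 markers did not pass. Ptprc, which encodes the leukocyte antigen CD45, was at 6.25, 7.06 and 8.44 with vehicle and 5.94, 7.15 and 8.38 with alprostadil (difference −0.10, adjusted p = 0.759). Csf1r, the receptor that keeps macrophages alive, was at 7.47, 8.22 and 9.04 with vehicle and 7.44, 8.45 and 9.21 with alprostadil (difference 0.12, adjusted p = 0.675). For these markers the median SD was 0.672 over the vehicle arrays and 0.201 over the 3 pair differences.

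Other genes expressed in leukocytes passed only with the block in both directions. Clec4a1, Clec4a3, Cd180, Rgs18 and Rasgrp3 were named by rule, as they were among the largest falls. Rhoh, Ctsc and Cd86 were picked for their change, from no list. Rhoh, a small GTP-binding protein of blood cells, Ctsc, a lysosomal protease, and Cd86, a costimulatory receptor ligand, rose by 0.86, 0.83 and 0.47. Clec4a1 and Clec4a3, C-type lectin receptors of myeloid cells, fell by 1.04 and 0.74, and Cd180, a Toll-like receptor relative, by 0.89. Clec4a1 had 7.17, 7.15 and 8.44 with vehicle and 5.69, 6.45 and 7.50 with alprostadil, and the groups overlapped because replicate 3 was highest in both. Rgs18, a G protein regulator of blood cells, had 5.67, 6.001 and 6.88 with vehicle and 4.52, 5.43 and 6.09 with alprostadil, in the same order of replicates (difference −0.84, SE 0.0981, adjusted p = 0.00153). Its alprostadil mean was under the low-signal limit. Of 21 tested G protein signal regulators, only Rgs18 passed. Rasgrp3, an activator of Ras and Rap, fell by almost the same amount in each pair, from 6.48, 6.89 and 6.94 to 5.61, 6.09 and 6.06 (difference −0.85, SE 0.072, adjusted p = 0.000305). The mean macrophage marker level moved from vehicle to alprostadil by less than it differed between replicate numbers, and its part in these falls was not tested. The call of Rhoh was lost without vehicle replicate 2 or without alprostadil replicate 1 or 2 (adjusted p up to 0.0728), that of Ctsc in all runs but that without alprostadil replicate 1 (up to 0.14), and that of Cd86 in all but that without vehicle replicate 3 (up to 0.0924). The call of Cd180 was lost without alprostadil replicate 2 or 3 or either of vehicle replicates 1 and 3 (adjusted p up to 0.0729), and that of Clec4a1 without alprostadil replicate 1 or 2 or either of vehicle replicates 1 and 3 (up to 0.0827).

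**Figure D3:**
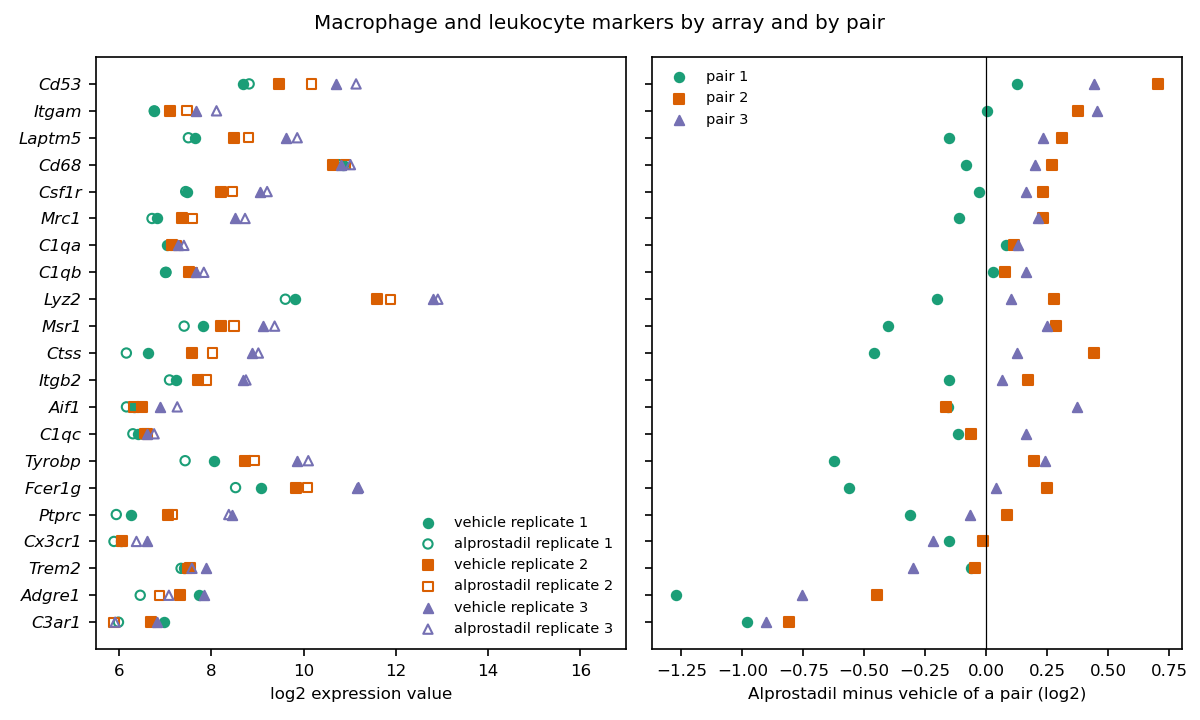
Left, log2 expression value of the 21 tested macrophage and leukocyte markers in each vehicle (filled) and alprostadil (open) array; right, the alprostadil minus vehicle difference of each pair (log2). On the left most markers differ mainly by replicate number, with replicate 3 at the right; on the right only Adgre1 and C3ar1 lie well below 0 in all 3 pairs.

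Of 18 dermal papilla genes, which mark the signalling centre of the hair follicle, 4 rose, none fell and the median was 0.09. Each of the 4 passed only with the block. Rspo3, a secreted enhancer of Wnt signalling, had 7.16, 7.24 and 8.30 with vehicle and 7.84, 8.03 and 8.99 with alprostadil. The groups overlapped while the 3 pair differences were nearly equal (difference 0.72, SE 0.0999, adjusted p = 0.00417, or 0.823 without the block). Fgf10, a growth factor for epithelium, had 10.52, 10.23 and 10.25 with vehicle and 10.99, 10.71 and 10.77 with alprostadil, without overlap (difference 0.49, SE 0.056, adjusted p = 0.00144). Wnt5a and the transcription factor gene Tbx18 rose by 0.49 and 0.32. Of 22 dermal precursor and neural crest genes, Twist2 rose by 0.33 (SE 0.0577, adjusted p = 0.0159), and Prrx1, Snai1 and Sox9 did not pass, with differences of 0.19, 0.38 and −0.17. The call of Wnt5a was lost in all runs but that without vehicle replicate 1 (adjusted p up to 0.177), that of Tbx18 in all but that without vehicle replicate 3 (up to 0.116), and that of Twist2 in all but that without alprostadil replicate 3 (up to 0.11).

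Among Wnt ligands, modulators and targets, 2 of 25 rose and 1 fell, and among TGF-beta, activin and BMP genes 2 of 25 rose and 1 fell. Lbh, a transcription cofactor and Wnt target, had 10.16, 10.04 and 9.96 with vehicle and 9.20, 9.40 and 9.25 with alprostadil, without overlap (difference −0.77, SE 0.128, adjusted p = 0.0122). Ccn2, connective tissue growth factor, had 8.63, 8.98 and 8.82 with vehicle and 7.68, 8.23 and 8.29 with alprostadil, also separate (difference −0.74, SE 0.0798, adjusted p = 0.000999). Bmp7 rose by 0.78 and the activin antagonist gene Fst by 0.51, and both had overlapping groups. Ccn2, Bmp7 and Fst passed only with the block, and without it the adjusted p of Ccn2 was 0.176. Bmp2 and Ccn1 were lower by less and did not pass, with differences of −0.34 (adjusted p = 0.0609) and −0.31 (adjusted p = 0.0568). The call of Bmp7 was lost in all runs but that without alprostadil replicate 1 (adjusted p up to 0.164), and that of Lbh without alprostadil replicate 1 or 3 or either of vehicle replicates 1 and 2 (up to 0.0774).

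Proteoglycan and hyaluronan genes had 4 of 25 higher and 1 lower. Srgn, serglycin, the granule proteoglycan of mast cells and leukocytes, had 7.68, 7.79 and 7.56 with vehicle and 8.77, 9.88 and 9.13 with alprostadil, with no overlap (difference 1.58, SE 0.168, adjusted p = 0.000907). It was also the only risen gene of 5 tested mast cell genes. The hyaluronan synthase genes Has1 and Has2 rose by 0.65 and 0.36, and Kera, keratocan, by 0.44. Prelp, a leucine-rich repeat proteoglycan of connective tissue, had 9.62, 9.72 and 8.67 with vehicle and 8.26, 8.77 and 7.76 with alprostadil, which overlapped because replicate 3 was lowest in both (difference −1.08, SE 0.102, adjusted p = 0.000489, or 0.58 without the block). None of 21 collagen genes passed in the main fit and their median was −0.10. With the 6 vehicle and alprostadil arrays alone 1 was higher. The call of Has2 was lost without alprostadil replicate 1 or 2 or either of vehicle replicates 2 and 3 (adjusted p up to 0.0879).

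Of 13 genes of plasminogen and clotting control, 3 rose and none fell. Tfpi2, an inhibitor of serine proteases, had 8.74, 8.29 and 8.28 with vehicle and 9.82, 9.78 and 9.50 with alprostadil, without overlap (difference 1.26, SE 0.144, adjusted p = 0.00144). Plat, tissue plasminogen activator, rose by 0.45 (adjusted p = 0.00397) and Serpine2, a serine protease inhibitor, by 0.43 (adjusted p = 0.0258). Among 13 smooth muscle and myofibroblast genes only Tagln, transgelin, fell, from 9.31, 9.28 and 9.66 to 8.36, 8.75 and 9.16, without overlap (difference −0.66, SE 0.117, adjusted p = 0.0165). Tagln passed only with the block. No gene passed in the main fit among 20 elastic fibre and other matrix proteins or 17 metalloproteinases and inhibitors. With the 6 vehicle and alprostadil arrays alone 3 of the metalloproteinase list were higher. With genes under the 50th percentile left out 1 of that list was higher and 1 elastic fibre or matrix gene was lower. The call of Tagln was lost without alprostadil replicate 1 or 2 or either of vehicle replicates 1 and 3 (adjusted p up to 0.106), and that of Serpine2 in all runs but that without alprostadil replicate 3 (up to 0.141).

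No gene of the DNA replication and mitosis lists passed individually in the main fit. With the 6 vehicle and alprostadil arrays alone 2 replication genes were lower, and 1 was with genes under the 50th percentile left out. Cep55, a cell division gene outside both lists, fell by 0.33 and passed only with the block. Its call was lost in all runs without 1 array but that without alprostadil replicate 3 (adjusted p up to 0.18). Of 27 DNA replication genes 26 were below 0, with a median of −0.20, and all 25 mitosis genes were below 0, with a median of −0.18, beside −0.01 over all genes. The replication factor gene Cdc6 had the largest of these differences, at −0.43 (SE 0.165, adjusted p = 0.284). The median of the replication genes was −0.24, −0.21 and −0.11 in pairs 1, 2 and 3, and that of the mitosis genes −0.25, −0.23 and −0.05. Under the other settings tried these medians lay between −0.25 and −0.14 and between −0.25 and −0.11. Members of such lists vary together between cultures, so that a count of genes on a side of 0 is not a count of independent results. None of the 11 housekeeping genes passed, and their median was 0.00.

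**Figure D4:**
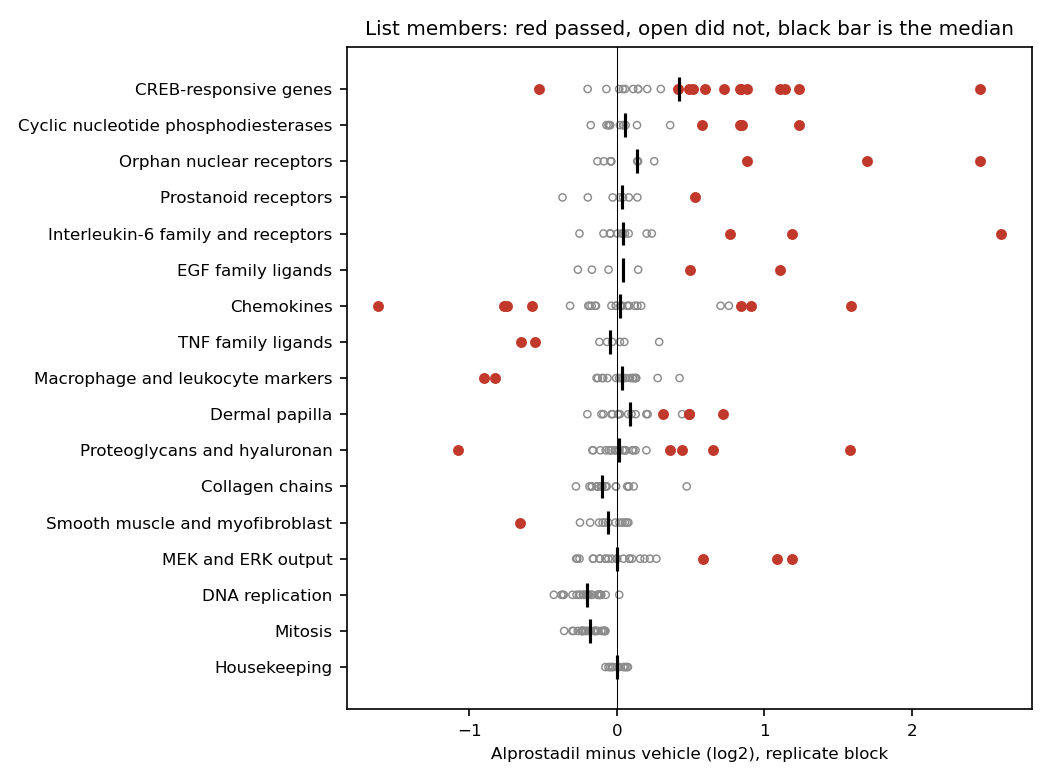
Alprostadil minus vehicle difference (log2, with the replicate block) of each tested member of 17 gene lists; red points passed, open points did not, and black bars are medians. CREB-responsive genes have the highest median, 0.42, and all members of the mitosis list lie below 0 without passing.

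Metabolic and stress lists held few changes. Ppargc1a, a coactivator of mitochondrial genes, rose by 0.60 from 5.56, 5.54 and 5.52 to 6.42, 6.08 and 5.91, with no overlap and all vehicle arrays under the low-signal limit, and Cpt1a, which brings fatty acids into mitochondria, rose by 0.28, so that 2 of 19 energy genes were higher. Slc16a3, a lactate transporter, was the only risen gene of 16 in glycolysis and hypoxia (0.46, adjusted p = 0.0344). Slc7a11, the cystine transporter, rose as 1 of 18 ATF4 stress genes (0.52, adjusted p = 0.0493), close to the threshold. Irf1 fell as 1 of 14 interferon response genes (−0.25, adjusted p = 0.035). Axl, a receptor tyrosine kinase, had 11.31, 11.35 and 11.29 with vehicle and 10.88, 11.002 and 10.97 with alprostadil and was the only gene of 27 in its list to fall (difference −0.37, SE 0.06, adjusted p = 0.011). Of 11 Schwann and neural genes Gap43 rose by 0.25 and Ncam1 fell by 0.34. No gene passed in the main fit for cholesterol synthesis, endoplasmic reticulum chaperones, heat shock, p53 targets, adipocytes, melanocytes, keratinocytes or endothelium. With genes under the 50th percentile left out 2 heat shock genes and 1 adipocyte gene were higher, and 1 keratinocyte gene was lower. The calls of Slc16a3, Slc7a11, Irf1, Gap43 and Ncam1 were lost in each run without 1 array, with adjusted p up to 0.156, 0.189, 0.198, 0.138 and 0.202. Those of Axl were lost in all but the run without alprostadil replicate 3 (up to 0.0673), and those of Cpt1a without replicate 2 or 3 of either group (up to 0.182).

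Pairing was needed for 204 of the 257 calls, which is 1.5% of all tested genes, with 116 higher (0.851%) and 88 lower (0.645%). The 53 genes that passed in both fits had a median absolute difference of 0.656, and the 204 a median of 0.409. The SD over the vehicle arrays had a median of 0.166 for the 204 genes and of 0.0996 for the 53, beside 0.0948 for all genes. The SD of the 3 pair differences had medians of 0.101, 0.129 and 0.109 in the same order. It was smaller than the vehicle SD in 146 of the 204 genes, in 21 of the 53 and in 5783 of all 13636. A difference of 2 unrelated arrays spreads more than a single array does, so equal SDs are not a neutral point. The groups overlapped in 52 of the 204 genes and in none of the 53, while over all genes 5.41% had every alprostadil array above every vehicle array and 6.19% had every one below. The median SE of the 204 genes was 0.0713 with the block and 0.123 without it, beside 0.0722 and 0.0867 over all genes. These values describe genes that were chosen by the fits themselves, and the same arrays entered both.

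The largest rises that passed only with the block were those of Pf4, Penk, Phyhipl, Cpne8, Sox4, Stc1, Kcne4, Ccl24, Dio3 and Nr4a3. Penk, the precursor of the enkephalins, had 11.15, 11.03 and 11.74 with vehicle and 12.65, 12.56 and 12.82 with alprostadil, without overlap (difference 1.37, SE 0.145, adjusted p = 0.000907, or 0.0714 without the block). Phyhipl, a neuronal protein of little known function, went from 8.62, 7.86 and 7.95 to 9.75, 9.37 and 9.18, also without overlap, and just missed the threshold without the block (adjusted p = 0.0501). Cpne8, a copine that binds membranes, had 7.04, 7.34 and 7.68 with vehicle and 8.11, 8.24 and 8.59 with alprostadil. Its vehicle arrays spread over more than its 3 pair differences did, with SDs of 0.321 and 0.0954. Sox4, a transcription factor of progenitor cells, rose by 0.94, and Stc1, the secreted hormone stanniocalcin, also by 0.94. Kcne4, a potassium channel subunit, rose by 0.91, and Dio3, which inactivates thyroid hormone, by 0.88. The call of Stc1 was lost in all runs but that without alprostadil replicate 3 (adjusted p up to 0.147), and that of Dio3 without replicate 2 or 3 of either group (up to 0.0697).

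Among the falls seen only with the block, Prss23, a secreted serine protease, went from 9.45, 9.77 and 10.09 to 8.50, 9.10 and 9.46 (difference −0.75, SE 0.0763, adjusted p = 0.000712, or 0.514 without the block). Its groups overlapped by a small margin, between vehicle replicate 1 and alprostadil replicate 3. The clearest contrasts of spread were chosen after their values were seen. Myo1f, a leukocyte myosin, had 6.77, 7.28 and 8.53 with vehicle and 6.31, 6.85 and 7.97 with alprostadil. Its SD was 0.91 over the vehicle arrays and 0.0729 over the pair differences, and its difference of −0.48 barely passed (adjusted p = 0.05, or 0.933 without the block). Hif1a, the hypoxia-inducible factor, had pair differences of 0.28 in all 3 pairs and levels of 11.35, 11.19 and 11.33 with vehicle. The calls of Myo1f and Hif1a did not hold when arrays were left out: that of Myo1f was lost in all runs but that without vehicle replicate 2 (adjusted p up to 0.238), and that of Hif1a in all 6 (up to 0.141). Just inside the threshold stood Slc7a11, Schip1 and Myo1f, and just outside it Ttyh2, Itga8 and Notch1, at adjusted p of 0.0512, 0.0516 and 0.0521.

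**Figure D5:**
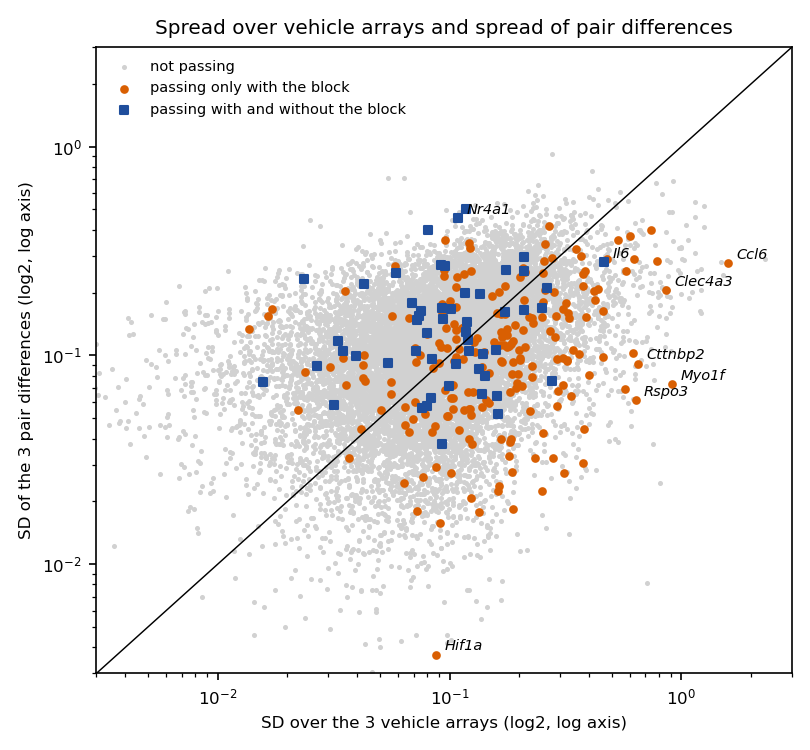
Each point is a gene, with the SD over the 3 vehicle arrays on the horizontal axis and the SD of the 3 pair differences on the vertical axis (both log2 units, log axes); the line marks equal SDs. Of the 204 genes that passed only with the block (orange), 146 lie below the line, among them Rspo3 and Myo1f, while Nr4a1, which passed in both fits, lies above it.

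Of 150 microRNA genes tested, 2 passed, Mir221 and Mir222, which lie 458 bases apart on chromosome X of GRCr8. That share is no higher than the 1.88% of all 13636 tested genes that passed. They were looked at after their values were seen. Mir221 spans chrX:6023182-6023290 and Mir222 chrX:6022621-6022723, both on the plus strand. The 3p products share the seed GCUACAU, bases 2 to 8, while the 5p products have different seeds. Their RefSeq mature sequences are given here because both loci fell together, with the seed in capitals. The array measures RNA of the locus, and mature and precursor forms are not told apart.
rno-miR-221-3p: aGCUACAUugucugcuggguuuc
rno-miR-222-3p: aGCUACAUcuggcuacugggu
rno-miR-221-5p: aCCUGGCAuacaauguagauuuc
rno-miR-222-5p: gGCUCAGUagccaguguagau

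Mir221 had 8.79, 8.34 and 8.38 with vehicle and 8.06, 7.89 and 7.89 with alprostadil, without overlap (difference −0.56, SE 0.0819, adjusted p = 0.00544). Mir222 had 7.23, 6.80 and 6.68 with vehicle and 6.97, 6.34 and 6.29 with alprostadil, which overlapped because replicate 1 was highest in both (difference −0.37, SE 0.0754, adjusted p = 0.0335). Both passed only with the block, with adjusted p of 0.224 and 0.786 without it. The call of Mir221 held in all 6 runs without 1 array. That of Mir222 was lost in all but the run without alprostadil replicate 1 (adjusted p up to 0.167). Without replicate number 1 or 2 in every group Mir221 was lost as well (up to 0.126).

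Trimebutine, given at the same dose and time, provided a further reference from the same fit. No gene passed for trimebutine against vehicle with limma and the block, and 252 of 13636 had an unadjusted p under 0.05 (1.85%), beside 1800 for alprostadil against vehicle. Alprostadil against trimebutine gave 342 genes (2.51%), 206 higher (1.51%) and 136 lower (0.997%). That comparison shares the alprostadil arrays with the one against vehicle, so values are set side by side and not counted as support. Il6 had 6.64, 6.06 and 6.04 with trimebutine, and alprostadil was higher by 2.73 (adjusted p = 6.53e-05). Nr4a1 had 6.62, 6.75 and 6.62 with trimebutine, a difference of 2.30 (adjusted p = 0.000157). For Ccl12 the trimebutine level was 0.41 below that of vehicle, and alprostadil was lower than trimebutine with an adjusted p of 0.000309. Ccl6 had 7.15, 9.09 and 10.49 with trimebutine, and its difference from alprostadil did not pass (adjusted p = 0.09). The call count of alprostadil against trimebutine was 154, 115 and 217 without alprostadil replicate 1, 2 or 3 and 91, 19 and 148 without replicate number 1, 2 or 3 in every group.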

How the data were processed

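Biotin-labelled targets from 400 ng of total RNA per sample were run on Rat Gene 2.0 ST arrays of Affymetrix, which have 1 colour, per the labels' protocols. The authors deposited log2 expression values for 36685 features, for which the submitters' processing notes name oligo and RMA, with versions and settings not given in the sources used here. RMA as usually run equalises probe signals between arrays, so that cells with more or less RNA in all may look alike, though medians of the deposited values still differed. The sample titles gave the groups and replicate numbers, and no 2 arrays held identical values.

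Symbols came from the platform annotation (18511 features with 1 symbol, 575 with several, 17599 with none) and, for 18394 features, were replaced by those of the RefSeq table (GRCr8) with the same Entrez identifier. The other 117 kept their old symbol. The brightest feature stood for a symbol, and 4530 genes with a mean under 5.83, the 25th percentile, were left out. Array gene coordinates are not given because the annotation's build is not named.

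All 12 arrays entered a limma fit (version 3.58.1, R 4.3.3) with group means and replicate number as a block (6 residual degrees of freedom), two-sided, with Benjamini-Hochberg adjustment over 13636 genes and a threshold of 0.05. The comparison was defined as paired, so the block is the main setting. Deviations from the group means were positively correlated in all 18 pairs of arrays with a shared number (r from 0.21 to 0.81). For different numbers r lay between −0.71 and 0.10, where centring each group on its mean by itself favours negative values. The design text names independent isolates. The fit without the block has 8 residual degrees of freedom. Steps were tested on simulated data. The p-values of the main fit rest on the spread left over all 12 arrays once group means and replicate numbers are taken out. They do not measure the spread between replicate numbers. The small number of cultures limits the precision.

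The comparison, its 48 gene lists and their members were chosen with earlier results of these data known, and 3 lists were added after seeing the values used here. Genes were named by rule: the 12 largest rises and falls that passed with the same direction in all pairs, the 10 largest rises and falls passing only with the block, without locus-number names and chemosensory receptors, up to 4 members of each list by p, all prostanoid receptors, and Il6, Nr4a1, Pde4b, Lif and Ccl12. Others complete a list's count, hold a CRE match or lie near a threshold, and were picked once their values had been seen. Promoters and microRNA sequences are RefSeq's. Alternatives were other filters, scalings and variance models, the trimebutine arrays as the reference, and fits without 1 array or 1 replicate number.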

Additional observations from a re-analysis of the deposited data

Results flagged for a closer look

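Features without a single gene symbol stood outside the comparisons above, and 5 of the 9611 of them above the low-signal limit passed for alprostadil against vehicle with limma and the block (0.052%), all higher. The largest difference was 2.45, with 7.74, 7.16 and 8.11 with vehicle and 10.52, 9.76 and 10.10 with alprostadil, and 2 of the 5 features held these same values. The others differed by 2.11, 1.14 and 0.89. Their genes are not named in the annotation used here. Groups of 3 arrays are too small for a test of outlying samples.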

How the results depend on the processing

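None of the 257 genes called against vehicle, or of the 342 against trimebutine, had the opposite sign in any setting in which it was fitted. For the 257 this was largely fixed by their choice, since each differed in the same direction in all 3 pairs. It is therefore no independent support. The 257 calls for alprostadil against vehicle became 53 without the replicate block, 169 with no filter on low values, 464 with a mean-variance trend and 734 with array weights. Of these, 53, 161, 255 and 257 were among the 257. The 160 higher genes became 44 without the block, 244 with the trend and 423 with weights. The 97 lower genes became 9 without the block, 58 with no filter, 176 with genes under the 50th percentile left out, 220 with the trend and 311 with weights. The 204 genes that needed pairing became 123 with no filter, 331 under the 50th percentile filter, 398 with the trend and 650 with weights. Alprostadil against trimebutine, 342 genes, gave 52 without the block, 196 with no filter, 571 with the trend and 812 with weights. The weights were 0.355, 2.55 and 0.769 for alprostadil replicates 1, 2 and 3, so that replicate 2 carried most of the weight of its group. The lowest of all was 0.332, for the third array of trimebutine with trametinib.

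Without 1 vehicle or alprostadil array the counts ranged from 115 to 208 for all calls, 79 to 129 higher, 28 to 79 lower, 79 to 166 for genes that needed pairing, and 115 to 288 against trimebutine. Without replicate number 1, 2 or 3 in every group they were 88, 37 and 125 for all calls, 67, 27 and 85 higher, 21, 10 and 40 lower, 64, 37 and 107 for genes that needed pairing, and 91, 19 and 148 against trimebutine. The 6 vehicle and alprostadil arrays alone gave 254 genes, 193 of them among the 257. They kept 67 of the 76 passing genes named by rule. The 9 lost were Cpt1a, Gap43, Hpgds, Irf1, Junb, Pkig, Slc7a11, Tbx18 and Twist2. The other settings (mean of features, centring, quantile normalization, robust eBayes) stayed within 1.5 times. Of the 76 passing genes named by rule, 26 passed without the block and 71 against the trimebutine arrays. The cause of these shifts was not tested. With 3 arrays per group and signals near background for low genes, small changes may not be detectable.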

Other observations

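Hox genes, class I myosins and targets of YAP and TEAD were grouped after the values were seen, so their counts describe these arrays only. Of 24 Hox genes, which set position along the body axis, 4 rose and none fell, with a median of 0.08. Hoxa9 had 7.15, 7.12 and 7.01 with vehicle and 7.63, 7.58 and 7.73 with alprostadil, without overlap (difference 0.56, SE 0.0805, adjusted p = 0.00541). Hoxc9, Hoxc8 and Hoxc10 rose by 0.51, 0.39 and 0.38, and their groups did not overlap. Hoxa9 and Hoxc9 passed in all 6 runs without 1 array. Hoxa9 was lost without replicate number 1 or 2 in every group (adjusted p up to 0.141), and Hoxc9 without number 2 (0.103). Hoxc8 was lost in all but the run without vehicle replicate 1 (adjusted p up to 0.0779), and Hoxc10 in all 6 (up to 0.109).

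Of 5 class I myosins, which link membranes to actin, 4 fell, Myo1c, Myo1d, Myo1e and Myo1f, with a median over the 5 of −0.35, and each passed only with the block. Myo1d had 9.66, 10.02 and 10.21 with vehicle and 9.25, 9.65 and 9.77 with alprostadil, with overlapping groups (difference −0.41, SE 0.0529, adjusted p = 0.00276), and kept its call in all 6 runs without 1 array. The counts of falls in those runs were 1 to 3. Without replicate number 2 or 3 in every group the call of Myo1d was lost (adjusted p up to 0.141). Of 16 targets of YAP and TEAD, Ccn2, Axl and Myof, a membrane repair protein, fell in the main fit and none rose. The median was −0.22 and lay between −0.27 and −0.15 under the other settings. With the 6 vehicle and alprostadil arrays alone 2 targets were higher and 3 lower. With genes under the 50th percentile left out 1 was higher and 5 were lower. Myof fell by 0.34, from 11.43, 11.57 and 11.49 to 11.07, 11.25 and 11.16, and lost its call in all but the run without alprostadil replicate 3 (adjusted p up to 0.0631). The number of falls was 1 to 3 in the runs without 1 array.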
